A study of Mus musculus with 16 samples.

Results

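The data described here are the DNA:RNA hybrid peaks that lay at the 3′ ends of protein-coding genes in NIH/3T3 cells, an established line of fibroblasts from mouse embryos. A peak was a member if its summit lay within 1000 bp of the 3′ end of a protein_coding gene of GENCODE M21 (build GRCm38) and more than 1000 bp from the 5′ end of every such gene, on chromosomes 1 to 19 and X. By this rule 2102 of the 76752 peaks on these chromosomes were members, and they merged into 1246 regions near the ends of 1173 genes. Hybrids had been captured by DRIP-seq, in which the antibody S9.6 pulls down DNA:RNA hybrids from genomic DNA cut with 4 restriction enzymes (MseI, DdeI, AluI and MboI). The cells were wild type (WT) or lacked Xpo4, which encodes exportin 4, a receptor that carries cargo out of the nucleus (KO, made with CRISPR-Cas9, both gene copies bearing an identical edit). Each DNA was incubated with RNase R, an exonuclease for linear but not circular RNA (the RNase R+ groups), or with the reaction buffer alone (the RNase R- groups), so that there were 4 groups of 2 replicates. The source names a single KO line and no rescue, so the loss of exportin 4 and other differences between the lines cannot be told apart. Nothing in the labels says whether replicates came from separate cultures, and the p-values below may therefore measure a technical spread only.

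An R-loop forms when RNA pairs with a DNA strand and leaves the other DNA strand unpaired. At the 3′ ends of genes such hybrids are known to form behind RNA polymerase II where it slows past the poly(A) signal, and helicases and RNases H that resolve them take part in transcription termination. Hybrids are favoured where the RNA is rich in G, and the usual poly(A) signal is AATAAA or its variant ATTAAA in the DNA of the gene strand. The cultures were measured in bulk, so a hybrid in few cells and a weaker hybrid in many cells cannot be told apart.

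Sequences under the summits are shown for regions of both kinds of list. The first 4 are 151-base windows centred on the summits of regions called in all 4 KO lists, printed on the gene strand from the GRCm38 reference, with runs of 3 or more G in capitals. Dhx9, Eif3d, Rps24 and Ppan hold 4, 2, 2 and 1 such runs. None of these windows overlaps an annotated UTR.
Eif3d (chr15:77959417-77959567, minus strand): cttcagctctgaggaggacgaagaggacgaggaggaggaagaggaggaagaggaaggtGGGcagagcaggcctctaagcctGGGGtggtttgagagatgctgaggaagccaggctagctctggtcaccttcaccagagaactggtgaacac
Dhx9 (chr1:153456564-153456714, minus strand): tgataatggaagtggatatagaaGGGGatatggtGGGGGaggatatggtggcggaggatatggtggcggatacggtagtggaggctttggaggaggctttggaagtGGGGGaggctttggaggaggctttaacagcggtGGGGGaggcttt
Rps24 (chr14:24497380-24497530, plus strand): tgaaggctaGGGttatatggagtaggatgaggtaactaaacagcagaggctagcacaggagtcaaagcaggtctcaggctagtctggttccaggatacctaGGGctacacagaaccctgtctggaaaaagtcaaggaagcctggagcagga
Ppan (chr9:20891495-20891645, plus strand): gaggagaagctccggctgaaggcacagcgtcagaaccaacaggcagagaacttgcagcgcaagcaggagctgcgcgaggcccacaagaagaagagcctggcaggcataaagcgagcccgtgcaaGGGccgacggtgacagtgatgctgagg
The next windows are from regions that WT lists also called. The window downstream of Anxa3 is a CTCCTG-type simple repeat, and the window at Gm10715, a predicted gene near the start of chromosome 9, is rich in A and T, holds no G run and lies in repeat-masked sequence.
Anxa3 (chr5:96846657-96846807, plus strand): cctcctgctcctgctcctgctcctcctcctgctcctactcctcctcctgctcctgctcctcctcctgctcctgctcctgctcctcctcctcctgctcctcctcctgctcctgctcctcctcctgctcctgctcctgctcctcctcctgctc
Gm10715 (chr9:3037917-3038067, plus strand): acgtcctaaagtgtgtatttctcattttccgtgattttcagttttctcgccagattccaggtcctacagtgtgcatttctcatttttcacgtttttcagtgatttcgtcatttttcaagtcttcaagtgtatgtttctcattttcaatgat
The last 30 bases of 5 genes with a region near their 3′ end are shown with the poly(A) signal in capitals. Between 15 and 23 bases followed the signal up to the annotated end.
Atf4 (chr15:80257512-80257541, plus strand): gctgtAATAAAttattttgtagtgaaagta
Rack1 (chr11:48806405-48806434, plus strand): caAATAAAcacttttttttatttttgcaac
Eif3d (chr15:77958998-77959027, minus strand): aAATAAAatttcattccctttggtttcttc
Ccn1 (chr3:145646976-145647005, minus strand): taatcatttAATAAAgaaatatttacctaa
Hbb-bs (chr7:103826534-103826563, minus strand): ctgacaAATAAAaagcatttatttcactgc
A poly(A) signal of either form stood in the last 50 bases of 403 of the 556 genes with a member peak in both KO RNase R- lists (72.5%), beside 15628 of all 21700 protein-coding genes that the rule allows (72.0%).

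KO cells had many more peaks at 3′ ends than WT cells. Without RNase R, the 2 KO lists held 751 and 895 member peaks and the 2 WT lists 43 and 27. With RNase R, the KO lists held 212 and 163 and the WT lists 5 and 6. The KO and WT values did not overlap under either treatment. On the log2 scale the KO mean exceeded the WT mean by 4.59 without RNase R, a 24.1-fold difference, and by 5.08 with RNase R, a 33.9-fold difference (p = 0.333 in each case by an exact two-sided permutation test, the smallest that 2 against 2 allows). With both treatments together and labels permuted within treatment, the difference was 4.84 (exact permutation p = 0.0556, the smallest that 36 arrangements allow, Benjamini-Hochberg adjusted p = 0.103 over the 13 tests made). The whole lists also differed in length, by 10.2-fold without RNase R and 20.5-fold with it. The level of fragments that the peak caller expected away from peaks was 0.843 to 0.924 in the KO lists and 0.425 to 0.558 in the WT lists, and its part in the number of peaks was not tested. By the read totals that the study states, both KO RNase R- libraries had several times more uniquely mapped reads than both WT RNase R- libraries, whereas the KO RNase R+ totals lay between those of the WT RNase R+ libraries. The part of depth in the difference without RNase R was not tested.

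**Figure D1:**
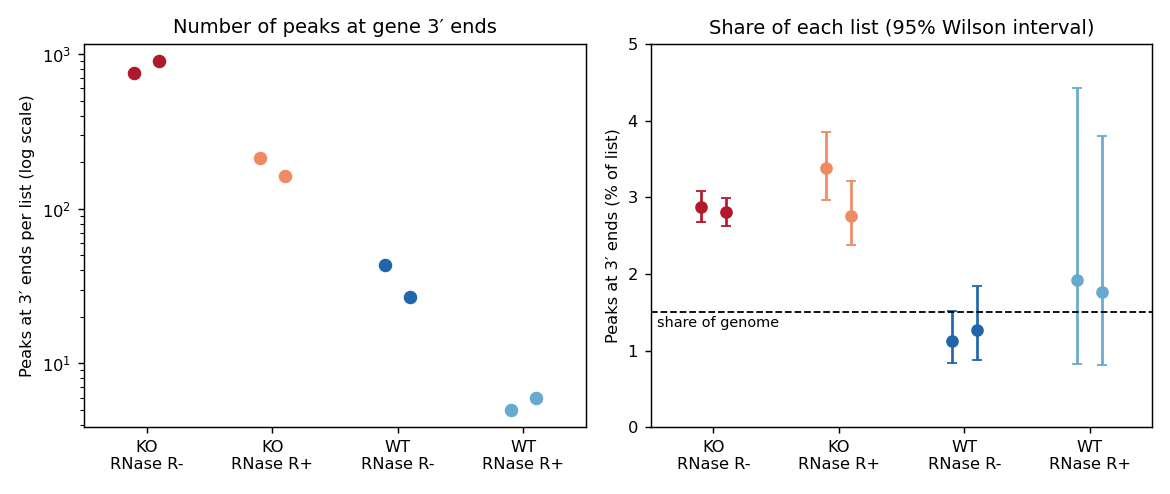
Left, number of peaks at gene 3′ ends in each of the 8 lists on a log scale. Right, the same peaks as a percentage of their list with 95% Wilson intervals, where the dashed line is the 1.51% of the genome that the 3′-end zones cover. Each point is a library, and the 4 KO points lie between 2.76% and 3.38%, above all 4 WT points.

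The 3′ ends also took a larger share of the KO lists. Member peaks made up 2.88% and 2.80% of the KO RNase R- lists, 3.38% and 2.76% of the KO RNase R+ lists, 1.13% and 1.28% of the WT RNase R- lists and 1.92% and 1.76% of the WT RNase R+ lists. The group means were 2.84% ± 0.0507 (SD, n = 2) for KO and 1.20% ± 0.106 (SD, n = 2) for WT without RNase R, and 3.07% ± 0.438 and 1.84% ± 0.112 with it. All 4 KO shares lay above all 4 WT shares, with a mean difference of 1.43 percentage points (exact stratified permutation p = 0.0556, adjusted p = 0.103). When each list was limited to its 260 strongest peaks by p-value, the length of the shortest list, the KO shares were 7.31% to 10.4% (19 to 27 peaks) and the WT shares 1.92% to 4.23% (5 to 11 peaks). The KO and WT shares did not overlap there either.

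Against the bases available, 3′ ends were richer in peaks than the genome in KO but not in WT RNase R- lists. The zones cover 38.6 of 2559 Mb. Their peak density was 1.91 and 1.86 times that of the genome in the KO RNase R- lists and 2.24 and 1.83 times in the KO RNase R+ lists, and 0.747 and 0.846 times in the WT RNase R- lists. The WT RNase R+ lists gave 1.28 and 1.17 times, from 5 and 6 peaks. Over the 8 lists the mean log2 ratio was 0.47 (exact sign-flip p = 0.0781, adjusted p = 0.127). Over the 4 KO lists alone it was 0.97 (exact sign-flip p = 0.125, the smallest that 4 lists allow). For the 4 WT lists alone it was -0.02 (exact sign-flip p = 0.875). Against the interior of protein-coding genes the density ratio was 1.80 to 2.11 in the KO lists, 0.821 and 0.943 in the WT RNase R- lists and 1.38 and 1.28 in the WT RNase R+ lists. On the log2 scale its mean was 0.93 over the 4 KO lists (exact sign-flip p = 0.125) and 0.11 over the 4 WT lists (exact sign-flip p = 0.625). Over the 8 lists, which pool both genotypes, it was 0.52 (exact sign-flip p = 0.0391, adjusted p = 0.103). This p rose to between 0.0625 and 0.0781 when any of 6 of the 8 lists was left out, the exceptions being the 2 WT RNase R- lists, and without WT RNase R- replicate 1 the ratio against the genome was 0.60 (exact sign-flip p = 0.0469). The densities of the WT RNase R+ lists turned on peaks in sequence of high expected level: without peaks above 3 times the background, the means over 8 lists were 0.08 against the genome and 0.02 against interiors. The ratio of 3′-end to interior density was 1.76-fold larger in KO than in WT (exact stratified permutation p = 0.0556, adjusted p = 0.103).

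Gene starts and internal exons showed a surplus in KO as well. Exons more than 1000 bp from gene starts and ends cover 2.70% of the genome. They held 3.78% and 3.63% of the KO RNase R- lists, and 0.811% and 0.756% of the WT RNase R- lists. With RNase R the shares were 4.64% and 3.34% in KO and 1.15% and 0.882% in WT. Of the 3′-end members themselves, 46.7% and 47.9% had exonic summits in the KO RNase R- lists. The density within 1000 bp of gene starts was 2.13 to 2.74 times that of the genome in the KO lists and 0.752 to 1.12 times in the WT lists. The 3′-end density was 0.892, 0.875, 0.819 and 0.828 times the promoter density in the 4 KO lists and 0.993, 0.755, 1.33 and 1.27 times in the 4 WT lists. Between genotypes the log2 of this ratio differed by -0.31, KO minus WT, from 0.03 without RNase R and -0.66 with it (exact stratified permutation p = 0.222, adjusted p = 0.263).

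Within the zones, KO RNase R- summits were scarcest in the last 200 bp of the gene. For the 2 KO RNase R- lists together, 200-bp bins held 203, 205, 212 and 171 summits between 1000 and 200 bp upstream, 101 in the last 200 bp of the gene, 137 in the first 200 bp past it, and 220, 240, 218 and 194 from there to 1000 bp downstream. A summit near the ends of several genes entered once for each. The KO RNase R+ lists had 25 to 64 summits per bin, with 30 in the last 200 bp of the gene and 25 in the bin on either side of it. The WT RNase R- lists had 2 to 13 per bin, with 8 in the last 200 bp of the gene, and in both of these groups the lowest count lay in another bin. The bin with the fewest KO RNase R- summits was also the poorest in GC, at 40.2% beside 43.7% to 45.8% in the others, and the part of base composition in the low count was not tested. Summits lay past the gene end in 54.3% and 53.3% of KO RNase R- members, 52.4% and 50.9% of KO RNase R+ members, 51.2% and 55.6% of WT RNase R- members, and 1 of 5 and 2 of 6 WT RNase R+ members. The KO-WT difference of 12.7 percentage points over both treatments (exact stratified permutation p = 0.167, adjusted p = 0.217) came from the WT RNase R+ lists, since without RNase R the difference was 0.453. It turned to -26.7 without peaks above 3 times the background level and to -5.11 with the ends of all transcripts.

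**Figure D2:**
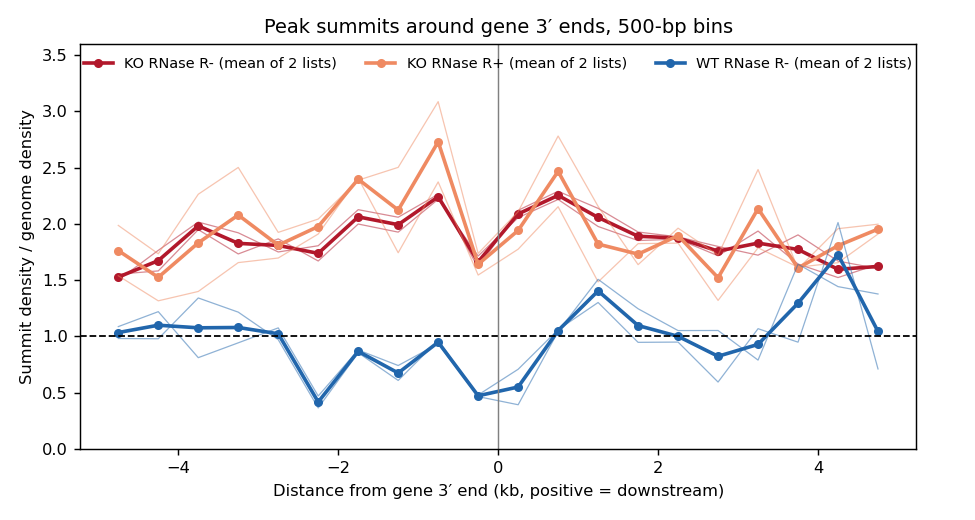
Density of peak summits in 500-bp bins from 5 kb upstream to 5 kb downstream of allowed gene 3′ ends, divided by the density over the genome in the same list. Thin lines are libraries and thick lines group means of 2 lists, and the WT RNase R+ lists are left out for their 11 member peaks. KO densities lie above the genome level in every bin, with a dip in the last 500 bp of the gene.

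The KO surplus was not limited to the zone. In 500-bp bins out to 5 kb on both sides the KO RNase R- lists stayed between 1.50 and 2.29 times the genome density, with 1.61 and 1.71 in the last 500 bp of the gene, 2.26 and 2.22 in the 500 bp before that, and 2.29 and 2.22 between 500 and 1000 bp downstream. The WT RNase R- lists ranged from 0.363 to 2.01 times over these bins, with 0.464 and 0.479 in the last 500 bp of the gene and 0.392 and 0.707 in the first 500 bp past it, and 1.04 and 1.06 from there to 1000 bp downstream.

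Member peaks of KO cells lay in GC-rich sequence with few repeats, while those of WT cells did not. In the 301-bp window around the summit, the median GC of members was 51.5% in both KO RNase R- lists, 51.8% and 51.2% in the KO RNase R+ lists, 42.2% and 45.5% in the WT RNase R- lists and 36.2% in both WT RNase R+ lists. Over all peaks of the KO RNase R- lists it was 42.9%. Windows with 50% or more repeat-masked bases made up 28.6% and 30.6% of KO RNase R- members and 27.4% and 33.1% of KO RNase R+ members, but 32 of 43 and 21 of 27 WT RNase R- members and all 11 WT RNase R+ members. For all peaks of a list this share was 66.5% to 76.9%. The KO-WT difference was 11.5 percentage points of GC and -58.1 percentage points of repeat-masked members, and in both measures the KO and WT lists did not overlap (exact stratified permutation p = 0.0556, adjusted p = 0.103 for each). With peaks limited to expected levels of at most 3 times background, the GC difference was 2.28 (exact stratified permutation p = 0.444), and that of repeat-masked members was -58.8.

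**Figure D3:**
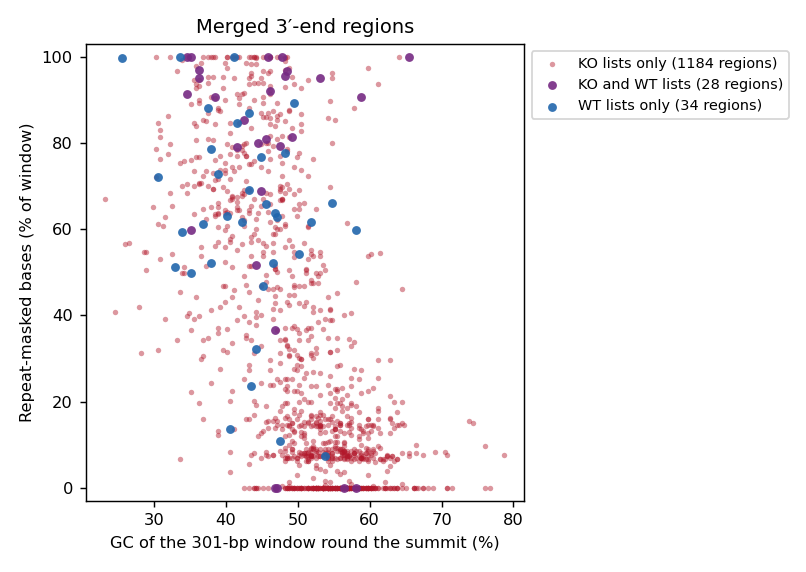
GC content against the percentage of repeat-masked bases in the 301-bp window around the summit of each of the 1246 merged 3′-end regions, as given by the region's peak of highest fold enrichment. Regions called in KO lists only (1184) crowd at high GC and few repeat-masked bases, and most of the 34 regions called in WT lists only lie above 50% repeat-masked bases.

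The KO-WT difference in share was also present among peaks of like composition. Among peaks with windows under 50% repeat-masked, members were 536 of 8186 and 621 of 9844 peaks in the KO RNase R- lists (6.55% and 6.31%), 154 of 2102 and 109 of 1646 in the KO RNase R+ lists (7.33% and 6.62%), and 11 of 1056 and 6 of 620 in the WT RNase R- lists (1.04% and 0.968%). The WT RNase R+ lists had 0 of 60 and 0 of 85. Among peaks with windows of 54% to 60% GC, 443 of 3386 KO RNase R- peaks were members (13.1%, 95% Wilson interval 11.99% to 14.3%) beside 4 of 290 WT RNase R- peaks (1.38%, 0.538% to 3.49%). Below 50% GC the intervals of KO and WT RNase R- lists overlapped in each class, with 0.841% in KO and 1.25% in WT below 38% GC and 3.19% and 1.82% between 46% and 50%. These intervals cover counting error only.

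**Figure D4:**
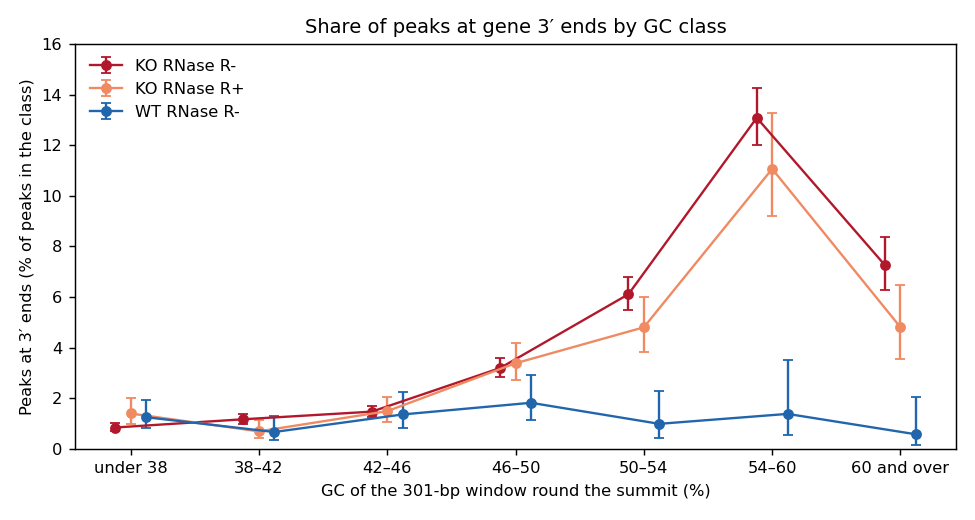
Percentage of peaks that lay at gene 3′ ends, by GC of the 301-bp window around the summit, for the 2 lists of a group summed, with 95% Wilson intervals. The KO RNase R- share rises from 0.841% below 38% GC to 13.1% between 54% and 60% and is 7.25% above that, while the WT RNase R- share stays between 0.573% and 1.82%; the WT RNase R+ lists are not drawn.

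Most regions were called in KO lists only. Of the 1246 regions, 1184 were called in KO lists alone (89.0% of all merged regions showed this), 34 in WT lists alone (5.98% of all) and the others in both. Both KO RNase R- lists and neither WT RNase R- list called 463 regions, or 37.2%, beside 25.7% of the 50279 merged regions of all peaks. The reverse pattern held for 7 regions (0.562%, beside 0.378% of all). Both KO RNase R+ lists and neither WT RNase R+ list called 94 regions (7.54%, beside 4.22%), and the reverse held for 1 region (beside 0.131%). Replicates shared 477 of the 1155 regions that either KO RNase R- list called (41.3%, 95% Wilson interval 38.5% to 44.2%), beside 32.2% over all regions of those lists. For the KO RNase R+ lists it was 98 of 267 (36.7%, beside 22.7%), and for the WT RNase R- lists 10 of 59 (16.9%, beside 11.4%). A single list called 702 of the 1246 regions (56.3%, beside 63.9% of all regions).

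Rack1, Eif3d and Rps18, genes of translation, were among the 10 regions of highest enrichment in KO without a WT call. Fold enrichment here is the summit height over the level that the caller expected there, each with 1 added. At Rack1, a scaffold protein of the small ribosomal subunit, the region chr11:48806838-48807735 lay 624 bp past the gene end. Its summit fell in an exon of another protein-coding gene. The fold enrichments were 32.6 and 39.6 in the KO RNase R- lists and 22.4 and 20.1 in the KO RNase R+ lists. At Atf4, a transcription factor of the stress response, the region chr15:80256961-80257993 had an exonic summit shortly before the gene end, with folds of 58.8 and 33.2 in the RNase R- lists, and of 17.9 and 10.0 after RNase R. At Eif3d, a subunit of translation initiation factor eIF3, the intronic summit of chr15:77959110-77959702 had 33.7 and 35.3 in the RNase R- lists, falling to 20.5 and 14.0 after RNase R. The absence of a member peak in WT lists was a condition for choosing these 3 regions. In each, the RNase R- values, by which the regions were ranked, lay above the RNase R+ values.

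Other regions of this set lay at genes of several kinds. Rps18, which encodes a protein of the small ribosomal subunit, had fold enrichments of 26.0 and 23.7 without RNase R. Hnrnpa1, an RNA-binding protein of pre-mRNA processing, had 19.5 and 28.0, and the zinc finger genes Zfp324 and Zbtb12 had 28.8 and 20.5, and 21.2 and 24.7. Epb41l4a, a member of the band 4.1 family, had 26.0 and 26.4. All of these were also called in both KO RNase R+ lists, with lower values there. At Ccn1, a secreted matricellular protein, the region chr3:145647347-145647673 had 26.2 and 38.5 without RNase R and was called in neither RNase R+ list. These genes were chosen for the lack of a WT call and for their fold enrichment in the KO RNase R- lists. That choice favours lower values with RNase R, so the values are a description.

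Ubb, a polyubiquitin gene, was among the regions called in most lists. Its region chr11:62551589-62552976 had 17.9, 25.3, 15.1 and 15.3 in the 4 KO lists and 7.39 in WT RNase R- replicate 2. All 4 KO values lay above the WT value, which came from a height of 10 fragments beside 28 to 47 in KO. The gene encodes repeated units that resemble each other, and the authors had removed reads that did not map uniquely.

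Lars2 had the highest fold enrichment of the named regions. The region chr9:123461582-123462205, in an exon of this mitochondrial leucyl-tRNA synthetase gene, had 204 and 242 in the KO RNase R- lists, 244 and 268 in the KO RNase R+ lists and 23.6 and 29.2 in the WT RNase R- lists. Summit heights reached 375, 457, 468 and 506 fragments in the KO lists, against 230 and 232 in the WT lists, and thus differed less than the folds. The level expected at this region reached 18.4 times the background in WT RNase R- replicate 1, whereas in the KO lists it stayed at their background. The folds of KO and WT were thus taken over unlike expected levels. The heights were not adjusted for depth. A region with 92.0% repeat-masked bases downstream of Wls, a gene of Wnt secretion, was called in the same 6 lists. Its fold enrichments were 30.4, 27.6, 31.9 and 29.1 in KO and 23.8 and 30.5 in WT, from heights of 959 to 2138 fragments and an expected level of up to 87.6 times background. KO and WT values overlapped there. Anxa3, an annexin gene, had another such region, in a simple repeat, with 5.39 to 7.74 in the KO lists and 14.5 and 7.34 in the WT RNase R- lists.

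**Figure D5:**
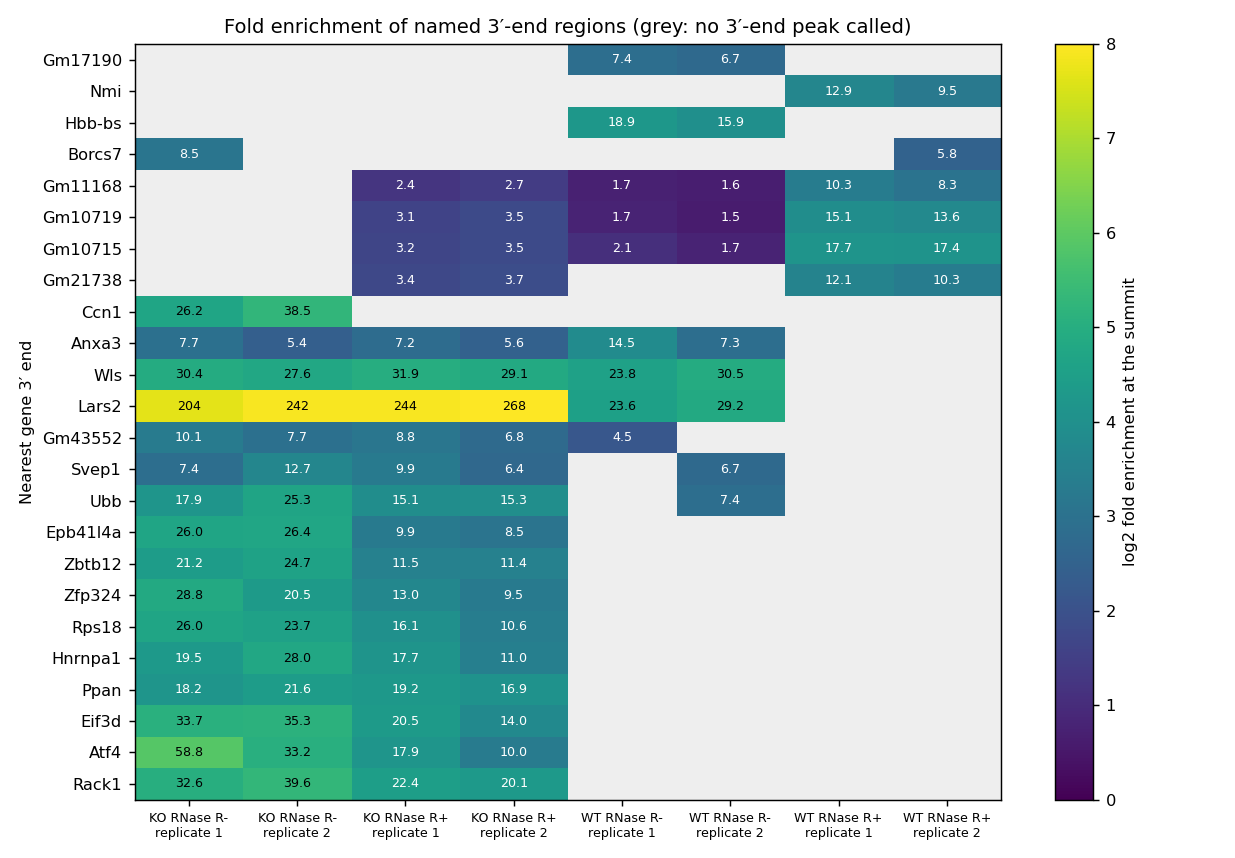
Fold enrichment at the summit in each of the 8 lists for 24 regions named for being called in most lists, for their fold enrichment in KO or WT lists, or for a call in a WT RNase R+ list. Colour is on a log2 scale, numbers are linear folds, and grey marks lists with no 3′-end peak. Lars2 has the highest folds in KO, and the 4 predicted genes (Gm11168, Gm10719, Gm10715 and Gm21738) are highest in the WT RNase R+ lists.

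RNase R lowered the number of peaks at 3′ ends by 4.41-fold in KO and 6.22-fold in WT, with no overlap between treatments in either genotype. Averaged over both genotypes, the log2 number changed by -2.39 (exact stratified permutation p = 0.0556, adjusted p = 0.103). At fold enrichments of 10 or more the change was -0.98 (exact stratified permutation p = 0.278). The whole lists shortened by 4.74-fold and 9.57-fold. The share of a list at 3′ ends was 0.437 percentage points larger with RNase R (exact stratified permutation p = 0.167, adjusted p = 0.217), in KO the treatments overlapped, and the direction turned under 4 alternatives, among them -1.25 for equal numbers of peaks. Of the 477 regions in both KO RNase R- lists, 164 were called in at least 1 KO RNase R+ list (34.4%, 95% Wilson interval 30.3% to 38.8%), beside 26.9% of all such regions of the series. Both KO RNase R- lists and neither KO RNase R+ list called 313 regions, 25.1% of the 1246 beside 20.5% of all regions, and 11 regions showed the reverse (0.883%, beside 0.607%).

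The folds without RNase R were ordered by how many KO RNase R+ lists called the region. The median fold enrichment in the KO RNase R- lists was 7.46 for the 313 regions in no KO RNase R+ list, 9.17 for the 82 regions in 1 and 12.7 for the 82 regions in both. In the 82 regions called in all 4 KO lists, the fold was lower with RNase R in 74, with a median log2 difference of -0.58 and a range of -1.72 to 0.49. The median GC of the 3 sets was 52.2%, 52.3% and 53.0%. These values were not computed over all regions of the series, so neither the order nor the lower folds can be taken as particular to 3′ ends. Among regions called in both KO RNase R+ lists, Lars2, Wls, Rack1 and Ppan were among the 5 of highest fold. Ppan, a gene of ribosome biogenesis, had 19.2 and 16.9 with RNase R and 18.2 and 21.6 without it.

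Repeats were common in WT regions and in WT peaks at large. Of the 59 regions in a WT RNase R- list, 48 (81.4%) had 50% or more repeat-masked bases, beside 72.4% and 70.7% of all peaks in these lists. A KO RNase R- list also called 22 of the 59, beside 2247 of all 5286 WT RNase R- regions. Hbb-bs, an adult β-globin gene, carried the region of highest fold that WT lists alone called, chr7:103826532-103826817, with 18.9 and 15.9 in the WT RNase R- lists from heights of 27 and 35 fragments and 11.0% repeat-masked bases. Its summit lay in an exon, and no KO list had a member peak there. Gm17190, a predicted gene, had 7.44 and 6.72 in the same 2 lists.

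The 6 regions called in a WT RNase R+ list lay at Gm11168, Gm10719 and Gm10715 within chr9:3005700-3038308, at Gm21738 on chromosome 14, at Nmi and at Borcs7. At Gm10715 the fold was 17.7 and 17.4 in the WT RNase R+ lists, 2.12 and 1.72 in the WT RNase R- lists and 3.21 and 3.46 in the KO RNase R+ lists, from heights of 702 to 15172 fragments. The level expected at the 4 predicted genes reached 1559 to 3664 times the background of a list. Whether fragments of similar sequence elsewhere in the genome add to these heights was not tested. Nmi had 12.9 and 9.46 in the WT RNase R+ lists, and Borcs7 had 5.78 in WT RNase R+ replicate 2 and 8.55 in KO RNase R- replicate 1.

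Gene lists were counted against all genes. Over all 21700 allowed genes, 556 (2.56%) had a member peak in both KO RNase R- lists and 60 (0.276%) in a WT RNase R- list. Of 82 cytosolic ribosomal protein genes, 17 (20.7%) had a member peak in both KO RNase R- lists and 7 (8.54%, beside 0.535% of all genes) in both KO RNase R+ lists. Rpl36, Rplp2, Rps18, Rps24 and Rps6 were among the 7. Of 40 abundant fibroblast transcripts, 10 (25.0%) had a peak in both KO RNase R- lists, among them the actin gene Actg1, the tropomyosin gene Tpm2, the cofilin gene Cfl1, Timp1 and Ccn1. Actg1 had fold enrichments of 11.8 and 8.02 in the KO RNase R- lists, compared with 4.63 and 5.29 in the KO RNase R+ lists. No gene of either list had a member peak in a WT list. The lists were chosen with earlier results of these data known, and the counts are a description.

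Genes that act at 3′ ends and on R-loops were counted in the same way. Of 29 genes of 3′-end processing and termination, 3 (10.3%, beside 2.56% of all genes) had a member peak in both KO RNase R- lists: Cpsf1, a subunit of the cleavage and polyadenylation factor, Pabpn1, the nuclear poly(A)-binding protein, and Rbbp6, a cleavage factor. Pabpn1 had folds of 5.43 and 5.80 and Rbbp6 of 5.47 and 7.17, and none was called with RNase R. Of 28 R-loop resolution genes there were also 3 (10.7%), namely Rnaseh2a and Rnaseh2c, which encode RNase H2 subunits, and Dhx9, an RNA helicase that unwinds R-loops. Dhx9 had 8.80 and 13.3 in the KO RNase R- lists, compared with 7.05 and 8.28 in the KO RNase R+ lists, and the G runs of its window are printed above. Of 394 Zfp zinc finger genes, 14 (3.55%) had a peak in both KO RNase R- lists, with Zfp326 and Zfp324 in all 4 KO lists. Olfactory and vomeronasal receptor genes, which fibroblasts are not known to transcribe, had 10 of 1466 (0.682%) in both KO RNase R- lists and 6 (0.409%, beside 0.276% of all genes) in a WT RNase R- list. The regions at Olfr301 and Olfr775 lay in simple repeats, with 92.7% and 88.0% repeat-masked bases.

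The genes with 3′-end peaks were described by length and neighbourhood. The 556 genes with a peak in both KO RNase R- lists had a median length of 11.6 kb, beside 17.5 kb over all allowed genes and 14.8 kb for the 60 genes marked in WT RNase R- lists. The 3′ end of a gene on the other strand lay within 1000 bp for 164 of the 556 (29.5%), beside 9.16% of all allowed genes and 0 of the 60. A peak between 2 such ends counts for both genes, which raises this share. A median of 26.5 other gene ends lay within 500 kb, beside 16 for all. A promoter peak in a KO RNase R- list was found at 81 of the 556 genes (14.6%, beside 6.36%), and an interior peak at 283 (50.9%, beside 36.7%). Chromosomes 19, 17 and 15 had the largest shares of allowed genes marked in both KO RNase R- lists, at 5.15%, 4.94% and 4.71%, and chromosomes 13 and 18 the smallest, at 0.605% and 0.977%.

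Under KO summits the gene strand held more G than C. In the 301-bp windows of the 463 regions called in both KO RNase R- lists and in no WT list, the median GC skew, (G-C)/(G+C) on the gene strand, was 0.16, and 301 windows (65.0%) had more G than C. Windows of the same length tiled over all allowed zones had a median of 0.01, with 50.9% above 0. Before and past the gene end the medians were 0.14 in 220 regions and 0.19 in 243 regions. These 463 windows held a mean of 5.78 runs of 3 or more G and 4.45 runs of 3 or more C, beside 3.51 and 3.61 in the tiled windows, and the letters GGGG on the gene strand stood in 69.8% of them, beside 52.6%. In the 59 regions of WT RNase R- lists the median skew was -0.05, with 25 windows above 0. The letters AATAAA on the gene strand were found in 11.4% of the 463 windows, 22.0% of the 59 and 23.3% of the tiled windows. Median GC was 52.2% in the 463 windows, 44.9% in the tiled windows and 44.5% in the 59. The part of GC content in the counts of runs and letters was not tested. A match of letters is a description of the window and not of a factor bound there.

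The edges of member peaks often fell at restriction sites. The start of the peak lay within 5 bp of a site of the 4 enzymes for 76.4% and 77.9% of KO RNase R- members, 67.5% and 62.0% of KO RNase R+ members, 53.5% and 44.4% of WT RNase R- members and none of the 11 WT RNase R+ members, beside 18.6% of genome positions. The same share was not computed over all peaks, so neither it nor its differences between lists can be taken as particular to 3′ ends. Member peaks had median widths of 298 and 296 bp in the KO RNase R- lists, beside 248 and 255 bp over all peaks. Position within a restriction fragment was therefore not resolved.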

How the data were processed

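The authors trimmed paired reads with cutadapt, aligned them to GRCm38 with Bowtie2, removed reads that were unmapped, not unique or rich in mismatches with SAMtools (version 1.1 per the labels) and ran MACS2 on every replicate by itself with a q limit of 0.001. The control library given to the caller is not stated. Each deposited list gives per peak a fold enrichment, which is a ratio, −log10 p and q values, a summit offset, and an integer score that was not used. Peak names in the first WT RNase R- list refer to replicate 2, but only 603 of 5286 merged regions of these 2 lists were in both, and each list was kept under its label. The deposited lists hold no read totals. Totals per library that the study states were read but entered no calculation, so counts of peaks were not adjusted for depth. Inputs and the E. coli spike were not analysed here.

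Summit heights and expected levels were recovered from the deposited fold and p by solving for the integer height that gives both values under Poisson counting, for 77297 of 77297 peaks. Genes were the 21755 protein_coding genes of GENCODE M21 on chromosomes 1 to 19 and X, of which 21700 had bases that the rule allows. Gene symbols Ctgf and Cyr61 were matched as Ccn2 and Ccn1, and all other listed symbols matched as written. Sequence and soft-masking (repeat-masked bases) came from the RefSeq GRCm38.p6 FASTA. Peaks of the 8 lists were merged where they overlapped. Group differences were tested by exact two-sided permutation over libraries, within treatment or genotype, and densities by exact sign flips, with Benjamini-Hochberg adjustment over 13 tests, 4 of them added after seeing the data. Python 3.11.15 with numpy 2.4.6, pandas 2.3.3 and matplotlib 3.10.9 was used, and the functions were tested on simulated data.

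The members and gene lists were chosen with earlier results of these data known. Named regions were the 10 called in most lists, the 10 highest by mean log2 fold of those in both KO RNase R- and no WT list, the 5 highest in both KO RNase R+ and in both WT RNase R- lists, every region in a WT RNase R+ list, and up to 4 per gene list, each named by the nearest gene end. Some regions chosen by this rule are not reported here. Alternatives changed the distance to the gene end, the exclusion around starts, the ends used, the overlap rule, the fold, q and expected-level limits, the number of peaks per list and the libraries. Restriction to peaks outside repeats and to 46% to 60% GC was added after seeing the data.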

Additional observations from a re-analysis of the deposited data

Results flagged for a closer look

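Without RNase R, 3′ ends held more peaks than expected from their length in both KO lists. In the WT lists the counts, 43 and 27 peaks, both lay below that expectation, each list taken alone within counting error. The 95% Wilson intervals of the WT shares were 0.836% to 1.512% in replicate 1 and 0.878% to 1.849% in replicate 2. Both include the 1.507% of the genome that the zones cover, in replicate 1 only just below the upper limit. No interval was computed for the 2 WT lists together. The mean log2 density ratio against the genome was 0.91 in KO and -0.33 in WT, and against gene interiors 0.86 in KO and -0.18 in WT. Both lists of a genotype lay on the same side of 0, and the opposite directions were not tested against each other beyond the permutation tests given above.

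The ratio of 3′-end to promoter density moved in opposite directions with RNase R. Its log2 value fell by 0.10 in KO and rose by 0.59 in WT, where it rests on 5 and 6 member peaks, and this difference was not tested.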

How the results depend on the processing

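The KO surplus in the number and share of 3′-end peaks kept its direction under every alternative that could be run. Without a library, the log2 density ratio ranged from 0.37 to 0.60 against the genome and from 0.44 to 0.63 against gene interiors, and the share difference between treatments from 0.28 to 0.59. The exact sign-flip p of the ratio against interiors, 0.0391 before adjustment in the main setting, rose under some alternatives. It was 0.242 within 500 bp of gene ends (ratio 0.37) and 0.117 with transcript ends (0.34). At an expected level up to 3 times background it was 0.961 (0.023), and at 46% to 60% GC 0.258 (0.50). For the ratio against the genome the exact sign-flip p, 0.0781 before adjustment in the main setting, fell under others. It was 0.0234 with no exclusion around starts (0.63) and 0.0156 at fold 10 or more (1.29). At −log10 q of 6 or more it was 0.0234 (0.62), and with equal numbers of peaks 0.00781 (1.62). The p-values of these alternatives were not adjusted. The share difference between treatments turned with equal numbers of peaks (-1.25), at low expected level (-0.0853), outside repeats (-0.229) and at 46% to 60% GC (-0.818). The KO-WT difference in downstream summits turned with transcript ends (-5.11), at low expected level (-26.7) and at 46% to 60% GC (-16.6), where that of median GC, limited by construction, was -0.498. At low expected level the difference in median GC was 2.28, and at fold 10 or more the log2 change in number with RNase R was -0.98. The causes were not tested. With the replicate block the effects were by construction the same (4.84 for number, 1.43 for share, exact sign-flip p = 0.125 each, the smallest possible). Replicate differences correlated at 0.0227 over 82 regions in KO, so the numbers were not taken to pair samples. Outside repeats the WT RNase R+ lists had 0 members, so log ratios could not be computed there.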
